A study of Hordeum vulgare with 18 samples.

Results

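The data describe what happened to messenger RNA in the spikes of a single transgenic barley line, KD-CKX1 17_10, between the appearance of the awns and the end of heading. The comparison is made of 6 of the 18 libraries in the series: 3 from spikes at BBCH stage 49, when the first awns show, and 3 at stage 59, when the whole spike has emerged. They were chosen by line and stage as the sample titles give them. The other 12 libraries come from a second silenced line, KD-CKX1 5.8, and from an azygous control, each with 3 libraries at each of the same stages, and they are used only to show where line 17_10 differs. All plants were barley (Hordeum vulgare) of the cultivar Golden Promise, grown in field plots with nitrogen fertiliser, a herbicide and fungicides, and RNA came from whole spikes. In both KD-CKX1 lines HvCKX1 is silenced. The sources used here do not describe the silencing construct, its promoter or the number of plants behind each library. The series calls the replicates biological, but whether they came from separate plots is not stated, so p-values measure the spread between these libraries.

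The product of HvCKX1 is a cytokinin oxidase/dehydrogenase. Such enzymes break down cytokinins by removing their side chain. Cytokinins are plant hormones that promote cell division and are known in cereals for their part in the activity of the inflorescence meristem and in grain number. Heading is the period in which the spike pushes out of the sheath of the flag leaf, and in barley the maturing of the florets and flowering fall in or near it. A spike at the end of heading therefore differs from one at the first-awn stage in the age of every floral organ and in its exposure to light and air. The files give identifiers (MLOC and EPlHVUG) without gene names. A reference table with 58438 barley genes matched 0 of the 26066 identifiers, so roles of single genes, pathway lists, tissue markers and the level of HvCKX1 itself are not described. With whole spikes, fewer cells of a type and less RNA per cell cannot be told apart.

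Values are counts that the authors normalized by a size factor per library, and levels are not divided by gene length. They were tested as log2(normalized count + 1) with limma, in a fit of the 6 libraries of line 17_10 alone. Tested features had at least 10 normalized counts in 3 or more of these libraries. Benjamini-Hochberg adjustment ran over all features tested, and a feature with an adjusted p below 0.05 is said to rise or fall. Whole reads recovered from the table gave 58019756 to 74202137 reads per library at stage 49 and 24459652, 78121108 and 37151076 at stage 59. Replicates resembled each other more at stage 49 than at stage 59. Pearson correlations of log2 values across features were 0.980 to 0.988 between replicates of stage 49, 0.962 to 0.980 within stage 59, and 0.775 to 0.836 between libraries of different stages. The median SD of a feature over its 3 libraries was 0.14 on the log2 scale at stage 49 and 0.21 at stage 59. A range of at least 4-fold among the 3 replicates was seen in 500 features at stage 49 and in 1216 at stage 59. The libraries that stand apart are replicate 2 of stage 59, whose values lay nearest to those of stage 49, and replicate 2 of stage 49, in which EPlHVUG features took 7.46% of the normalized counts against 0.37 to 2.2% in the other 5.

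Changes over heading were found across a large part of the measured transcriptome. Of 19754 features tested, 5017 rose (25.4% of those tested) and 5607 fell (28.4%), 10624 in all (53.8%; limma, adjusted p below 0.05). Falls stayed the more numerous with TMM scaling of the recovered reads (5444 against 5251 rises), whereas with the EPlHVUG features left out and the libraries rescaled to their totals there were 5937 rises and 4920 falls. The 3 libraries of one stage did not overlap the 3 of the other in 12726 features, 64.4% of those tested, with 31.1% higher and 33.3% lower at stage 59. Of the called features, 10593 were among these. The largest changes went from near silence to high abundance, or the reverse.

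MLOC_70041 showed the largest rise. It stood at 19.3, 48.2 and 6.70 normalized counts in replicates 1 to 3 of stage 49 and at 114196, 58329 and 109205 at stage 59. All 3 libraries of stage 59 lay above all 3 of stage 49, and replicate 2 of stage 59 was the lowest of its stage. The log2 fold change was 12.15 (SE 0.65, n = 3 libraries per stage; limma, adjusted p = 3.5e-05), and the ratio of means 3800 (95% exact Poisson interval 3069 to 4764, from the 84 reads at stage 49). That interval covers counting error alone. The spread between libraries, with 20, 57 and 7 reads at stage 49, is not in it. The feature was also high at stage 59 and low at stage 49 elsewhere, at a mean of 46.9 ± 13.9 and then 81257 ± 6926 in the control, and 68.6 ± 17.8 and then 83498 ± 5688 in line 5.8 (SD, n = 3).

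MLOC_40839 rose next most. Its normalized counts were 4.82, 5.07 and 2.87 at stage 49 and 17092, 10107 and 17311 at stage 59. Again the stages did not overlap, and replicate 2 was the lowest of stage 59. The log2 fold change was 11.45 (SE 0.29, n = 3; limma, adjusted p = 6.6e-06). In the control the mean went from 8.25 ± 3.43 to 12267 ± 1229, and in line 5.8 from 11.4 ± 5.48 to 9896 ± 2167 (SD, n = 3).

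MLOC_74759 showed the largest fall. It stood at 2850, 1969 and 2862 normalized counts at stage 49, and at 0, 4.79 and 0 at stage 59. The only library of stage 59 with reads was replicate 2, which had 7. The log2 fold change was -10.46 (SE 0.70, n = 3; limma, adjusted p = 7.2e-05), and the ratio of means 1602 (95% exact Poisson interval 778 to 3985, for counting error alone). The other genotypes were uneven at stage 49, at 929, 4192 and 1987 normalized counts in replicates 1 to 3 of the control and 1613, 137 and 3487 in line 5.8. The feature fell there too, to a mean of 1.03 ± 1.78 in the control (limma, log2 fold change -10.27, SE 0.76; adjusted p = 0.00016) and 6.02 ± 5.72 in line 5.8 (limma, log2 fold change -7.34, SE 1.25; adjusted p = 0.006; SDs over n = 3).

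MLOC_16721 fell in the same manner, from 1339, 1779 and 2027 normalized counts to 0, 2.05 and 0. The 3 reads left at stage 59 were again all in replicate 2. The log2 fold change was -10.19 (SE 0.50, n = 3; limma, adjusted p = 2.9e-05). With so few reads, the ratio of means, 2504, has a 95% exact Poisson interval of 857 to 12144, for counting error alone. The control held 1422 ± 873 at stage 49 and 0.88 ± 1.53 at stage 59. In line 5.8 the values at stage 59 were 1.35, 0 and 71.7, and the fall there missed the threshold (log2 fold change -6.33, SE 2.05, n = 3; limma, adjusted p = 0.055).

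**Figure D1:**
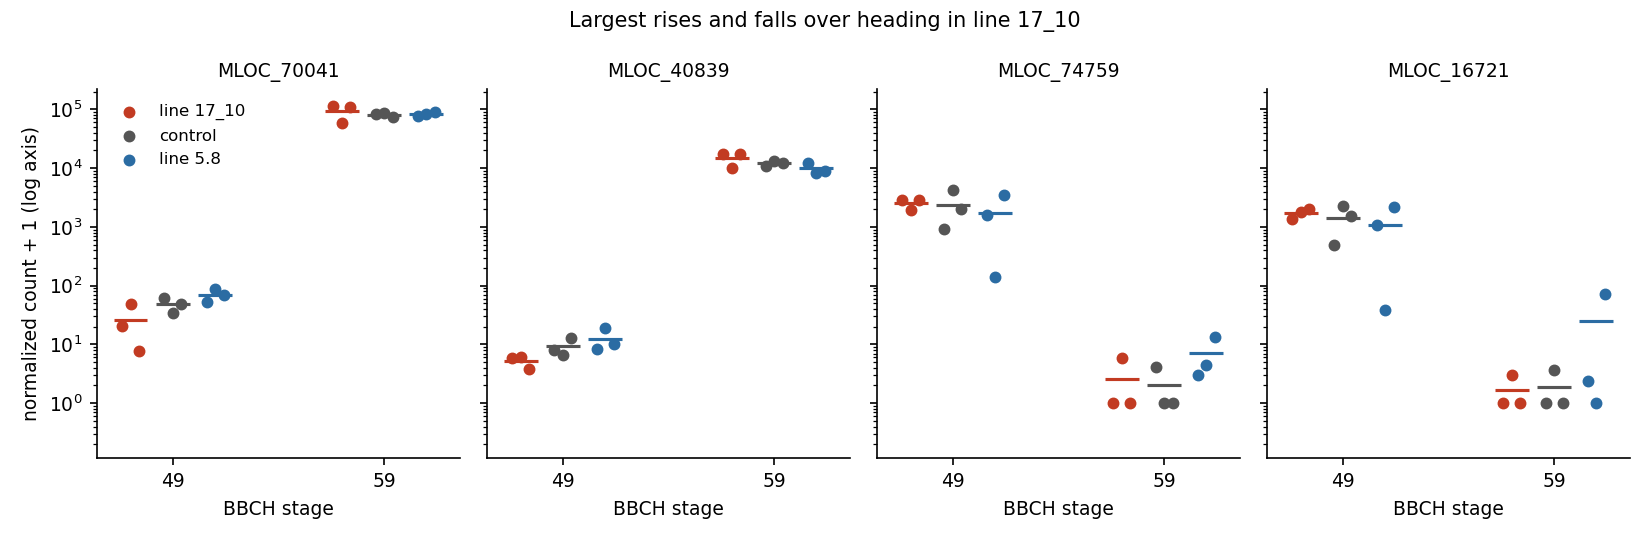
Normalized count plus 1 (log axis) of the 2 largest rises and 2 largest falls over heading in line 17_10, against BBCH stage. Each point is a library and each bar a mean of 3. In line 17_10 the stages do not overlap for any of the 4 features, and at stage 59 replicate 2, the middle point of each 3, lies on the side of stage 49.

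The same side was taken by replicate 2 of stage 59 across the changed features. Of the 1211 features that rose at least 4-fold, it was the library of stage 59 nearest to the stage 49 mean in 821 (67.8%), against 150 for replicate 1 and 240 for replicate 3. Of the 1973 that fell at least 4-fold, it was nearest in 1053 (53.4%), against 434 and 486. Over all tested features the share was 46.0%. The features that rose at least 4-fold stood a median of 3.79, 3.09 and 3.56 log2 units above stage 49 in replicates 1 to 3. Replicate 2 was also the deepest of the 3 libraries, and replicate 1 the shallowest; the part of depth in this order was not tested. Without replicate 2 of stage 59, 11214 features were called in place of 10624, and 3427 changed at least 4-fold in place of 3184.

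Most rises were small and the falls were larger. The median log2 fold change was 0.89 among the features that rose and -1.36 among those that fell, against -0.01 over all features tested. A size of at least 2-fold was reached by 2311 rises and 3432 falls, at least 4-fold by 1211 and 1973, at least 16-fold by 474 and 680, and at least 64-fold by 150 and 232. Falls thus outnumbered rises at each of these sizes. At the far end the order turned, since 6 of the 8 features that changed at least 1024-fold rose.

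The other genotypes, each fitted alone by the same rule, give the frame for this split. In the control 9481 of 19965 features were called (47.5%), 4730 higher (23.7%) and 4751 lower (23.8%), and in line 5.8 there were 6580 of 19861 (33.1%), 3084 higher (15.5%) and 3496 lower (17.6%). Rises made up 38.0% of the features changed at least 4-fold in line 17_10, 51.7% in the control (1667 of 3227) and 46.0% in line 5.8 (1438 of 3128). Without regard to p, rises made up 38.4%, 52.1% and 45.1% of the features with such a change. Whether the shares differ between genotypes was not tested. In line 17_10 the share was 36.9 to 41.2% with any of its 6 libraries left out.

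**Figure D2:**
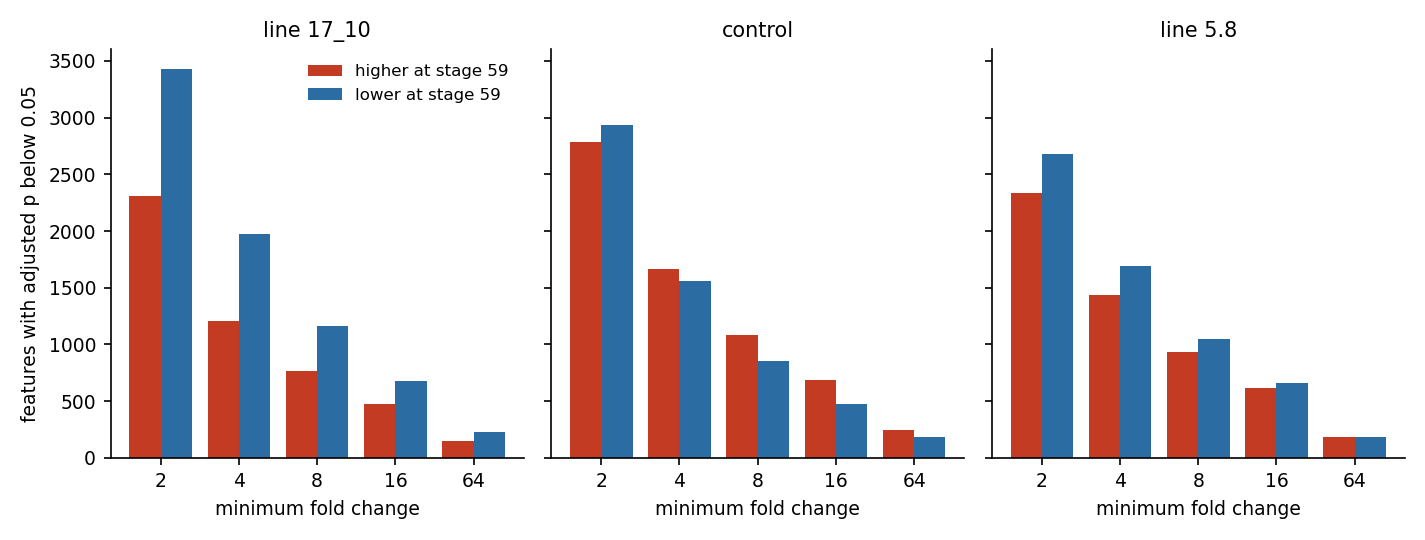
Number of features with an adjusted p below 0.05 (limma) against the minimum fold change, for line 17_10, the control and line 5.8, each fitted alone. Bars show features higher and lower at stage 59. In line 17_10 falls exceed rises at each size shown, by 1973 to 1211 at 4-fold, while the control holds 1667 rises and 1560 falls at that size.

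How often a feature changed, and by how much, went with its level. The tested features were put in 5 equal classes by mean normalized count over the 6 libraries. The share called was 45.8% in the lowest class (means of 6.09 to 126), 51.6%, 54.6% and 56.8% in the next, and 60.2% in the highest (means above 3453). Large changes had the opposite order: 31.8% of the lowest class changed at least 4-fold and passed the test, against 7.04% of the fourth class and 8.33% of the highest. Features of the lowest class can pass the filter through 1 stage alone, so the filter itself favours large changes there, and with a minimum of 50 normalized counts in place of 10 the features changed at least 4-fold were 2497 in place of 3184. The median SE of a log2 fold change was 0.45 in the lowest class and 0.10 in the highest. In the lowest class falls were the more frequent, 1126 against 682 rises. In the fourth class rises were slightly ahead, at 1171 against 1072. In the highest class 222 features fell and 107 rose at least 4-fold.

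**Figure D3:**
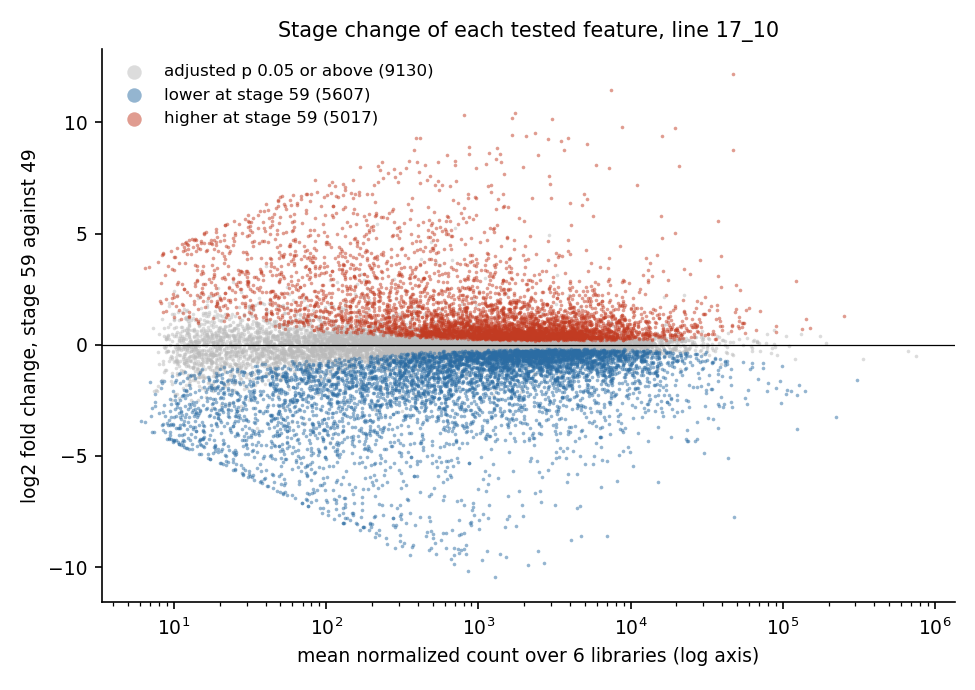
Log2 fold change from stage 49 to stage 59 in line 17_10 against mean normalized count (log axis), 1 point per tested feature. Colours mark the 5017 features that rose, the 5607 that fell and the 9130 that did not pass the test; the cone edges at low counts are set by the added pseudocount of 1.

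Some of the changed features were near silence at one stage. Of the features that rose, 486 had a mean below 10 normalized counts at stage 49, and their median level at stage 59 was 73.6. They include 36 that reached a mean of at least 1000. A mean below 10 at stage 59 was reached by 771 of the falling features, with a median of 62.5 at stage 49, and 39 of them had stood at 1000 or more. In 51 rising features not a single read was found in the 3 libraries of stage 49. The most abundant of these had 1361, 272 and 697 normalized counts at stage 59. Their mean, 776 ± 549 (SD, n = 3), was 281-fold the floor, taken as 3 reads in each library. Zeros depend on depth, which was 58019756 to 74202137 reads at stage 49 and 24459652, 78121108 and 37151076 at stage 59. The part of depth in the counts of rises and falls was not tested. In 79 falling features no read was left at stage 59. The most abundant had held 658, 673 and 814 at stage 49, a mean 164-fold the floor. These features passed the filter through 1 stage alone, so the ratios are a description.

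The genotypes not used to choose these features had them low at the same stage in most cases. Of the 486, 397 (81.7%) had a mean below 10 at stage 49 in the control and 395 (81.3%) in line 5.8. Of the 486, 458 were tested in the control and 432 in line 5.8 (limma). Among those tested, 430 were called higher at stage 59 in the control, where 23.7% of all features were, and 345 in line 5.8, where 15.5% were, and 0 were called lower in either. Of the 771 that fell to below 10, 565 (73.3%) were below 10 at stage 59 in the control and 550 (71.3%) in line 5.8. In the control 651 of the 771 were tested and 486 called lower, against 23.8% of all features, and in line 5.8 671 were tested and 477 called lower, against 17.6%. Among those tested, 0 were called higher in either. Most of these features were low at the same stage in the other genotypes. They could thus pass the filter there almost only through the other stage. The direction of these calls, with the counts of 0, is then largely set by the filter. The shares over all features are not a matched baseline for them. Of the 51 rising features without reads at stage 49, 21 had no read in the control and 16 none in line 5.8. The highest summed reads were 180 and 308. Of the 79 falling features without reads at stage 59, 27 had no read in the control and 24 none in line 5.8. The highest summed reads were 885 and 70. These numbers depend on depth, which at stage 49 was 48083466 to 106034579 reads in the control and 49209514 to 85230181 in line 5.8. At stage 59 it was 41867959 to 68302420 and 33502151 to 78214174.

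By abundance, the sets exchanged much of the measured RNA. The features that rose held 18.4, 16.7 and 18.7% of the normalized counts in the 3 libraries of stage 49, and 40.5, 36.3 and 38.4% at stage 59. Those that fell went from 42.8, 41.2 and 42.5% to 17.9, 21.7 and 19.4%. The sets were chosen on these libraries, so the shares are a description here. In the control, whose libraries had no part in the choice, the rising set held 18.8 ± 2.03% at stage 49 and 39.3 ± 1.27% at stage 59, while the falling set went from 42.2 ± 3.72% to 19.5 ± 0.67% (SD, n = 3). For line 5.8, the rising set went from 17.5 ± 0.31% to 37.3 ± 0.52% and the falling set from 44.3 ± 1.24% to 20.9 ± 0.55%. In both genotypes the libraries of the 2 stages did not overlap. The features that did not pass the test held 38.8 to 42.2% of the counts in every library of line 17_10.

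**Figure D4:**
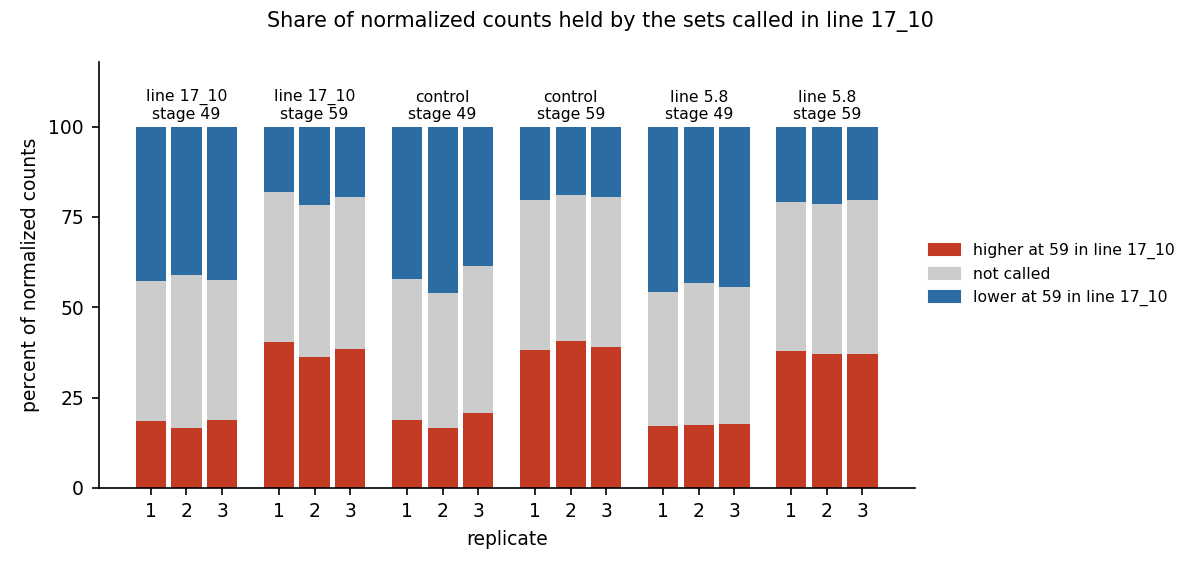
Percent of normalized counts in each of the 18 libraries held by the features that rose, fell or did not pass the test in line 17_10. The rising set holds 16.7 to 18.7% at stage 49 and 36.3 to 40.5% at stage 59 in line 17_10, and the control and line 5.8 show shares of similar size.

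The abundance that was exchanged sat in few features. Of the summed gain in mean normalized counts, 50% was reached with 241 of the 5017 rising features, and 50% of the summed loss with 201 of the 5607 falling ones. The 20 largest gains made up 15.9% of all gain. They held 1.34, 1.18 and 1.30% of the counts at stage 49 and 4.82, 4.26 and 4.10% at stage 59, with log2 fold changes between 0.69 and 12.15. The 20 largest losses made up 19.3% of all loss and went from 5.94, 6.12 and 5.81% to 0.98, 1.94 and 1.35%, with log2 fold changes between -7.73 and -1.60. All 40 lay apart between the stages, and in the control and line 5.8 each had the same direction. In the control 15 of the 20 gains and all 20 losses passed the test, against 23.7% higher and 23.8% lower among all features, and in line 5.8 17 gains and 15 losses did, against 15.5% and 17.6%.

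The list of most abundant features was also renewed in part. Of the 100 features with the highest mean at stage 49, 47 were also among the 100 highest at stage 59. Between single libraries, 87 to 94 of the top 100 were shared within stage 49, 78 to 80 within stage 59, and 42 to 58 between stages. Of the 53 that left the list, 49 fell, and of the 53 that entered it, 44 rose (limma, against 28.4% and 25.4% of all features tested). These counts follow from how the lists were made and are given as a description. The 47 that stayed were not constant, since 7 of them rose and 11 fell.

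A share of the transcriptome was held within narrow limits. In 5367 features (27.2% of those tested) the 95% interval of the stage change lay wholly within 1.5-fold either way. They held 30.8 to 34.0% of the counts at stage 49 and 35.2 to 35.9% at stage 59. Of the 5367, 981 passed the test with small changes, against 10624 of all 19754 features tested (53.8%). The choice of the set, which leaves out large changes, favours that order. In 5486 features (27.8%) the interval lay wholly beyond 1.5-fold, and for the remaining 8901 (45.1%) it crossed a bound, so these libraries do not say on which side they fall. Of the 5367, 98.6% also had an estimate within 1.5-fold in the control and 92.7% in line 5.8, and 4 and 51 reached 2-fold there. An estimate within the bound asks less than an interval within it. The share of all features with such an estimate was not counted, so these shares do not set the 5367 apart. Chosen for narrow intervals, they had a median mean of 2085 normalized counts. In the fourth level class (means of 1435 to 3453) the median size of change was 0.36 log2 units in line 17_10. Over all features tested in both line 17_10 and the other genotype, the median size of change was 0.51 log2 units in the control and 0.59 in line 5.8.

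The stage change of line 17_10 was then set beside those of the other genotypes, to ask whether heading ran differently in this line. The comparisons share no library. Of the called features that were also tested in the control, 98.8% (10348 of 10471) had the same direction there. In the same direction 7901 passed the test, 75.5% of those called in line 17_10 and 85.8% of the 9210 called in the control. Of all features tested in both, 47.3% were called in the control, in either direction. With line 5.8, 96.5% had the same direction (10101 of 10467). In the same direction 5966 passed, 57.0% of those of line 17_10 and 92.7% of the 6439 of line 5.8. Of all features tested in both lines, 33.1% were called in line 5.8, so fewer shared calls were to be had there. Across features, which are not independent and share the normalization of each library, the log2 fold changes correlated at r = 0.95 with the control (19477 features) and 0.91 with line 5.8 (19481). For features that changed at least 4-fold in line 17_10, the median ratio of the other genotype's log2 change to that of line 17_10 was 0.96 in the control and 1.02 in line 5.8.

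Of the features tested in all 3 genotypes, 10362 were called in line 17_10, 5098 of them in the same direction in both other genotypes. A call in line 17_10 with none elsewhere was made for 1760 (977 higher, 783 lower). These changes were small, with a median size of 0.48 log2 units against 1.74 for the shared ones. The selection itself favours that order, since the shared features had to pass in all 3 genotypes. Of the 1760, 1467 (83.4%) had the same direction in both other genotypes and 19 the opposite direction in both. Of all called features tested in the other genotype, 98.8% had the same direction in the control and 96.5% in line 5.8, each taken singly. The share with the same direction in both was not counted over all features. A call in one genotype alone does not show a difference between genotypes, so the difference was tested as the interaction of stage and genotype in a fit of all 18 libraries.

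By limma, 0 of 20874 features (0%) passed the test for a stage change in line 17_10 different from that in the control. The unadjusted p was below 0.05 in 529, of which 146 were positive and 383 negative. Without any difference, a share of 0.05 of the features would be expected below that threshold. The 529 lay well below that share, so their split by sign is only a description. Against line 5.8, 0 of 20874 features (0%) passed as well. There the unadjusted p was below 0.05 in 1113, close to that share. This fit pools the spread of all 3 genotypes. With the 12 libraries compared fitted alone, limma again gave 0 and 0. The unadjusted p was then below 0.05 in 1026 of 20537 features against the control and in 938 of 20486 against line 5.8. Both lay close to the share expected without a difference. edgeR's quasi-likelihood test on the recovered reads gave 0 and 0, and DESeq2 gave 15 and 15. Without replicate 3 of the control at stage 59, limma gave 25 against the control. The median SE of an interaction was 0.37 log2 units, and differences of that size were not detectable in a single feature. The count against the control was 518, and against line 5.8 1136, when limma weighted the libraries by quality. The weights, whose estimation ended with a warning of no convergence, ran from 0.09 for replicate 2 of line 5.8 at stage 49 to 30.8 for replicate 1 of the control at that stage.

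The features with the highest and the lowest moderated t are described although neither passed. MLOC_70609 ran in opposite directions. In line 17_10 it stood at 3144, 2415 and 2388 normalized counts at stage 49 and at 3664, 4532 and 3691 at stage 59, all of the latter above the former. In the control it went from 3739, 3109 and 4868 down to 1624, 2011 and 2206, and the stages again did not overlap. In line 5.8 the means were 3766 and 2575, in the direction of the control. The interaction was 1.58 log2 units (SE 0.26, n = 3 per group; limma, adjusted p = 0.24).

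MLOC_20041 had the lowest t against the control. It was present at 89.7, 91.2 and 78.4 normalized counts in line 17_10 at stage 49 and at 0, 2.05 and 4.31 at stage 59. The control held no more than 0.55 in any library of stage 49 and 2.65 at stage 59, at or below 3 reads, so the feature had no level from which to fall there. In line 5.8 it stood at 51.1, 30.9 and 12.6 at stage 49 and at 0 reads in all 3 libraries of stage 59. The interaction with the control was -5.79 (SE 0.92, n = 3 per group; limma, adjusted p = 0.24).

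Against line 5.8 both extremes were features without reads in line 17_10 at stage 49. MLOC_36732 had 0 reads in line 17_10 at stage 49 and 147, 214 and 148 normalized counts at stage 59. Its mean at stage 59 was 61.4-fold the floor of 3 reads per library. In line 5.8 it stood at 10.8, 0 and 22.6 at stage 59, and in the control at 3.08, 9.28 and 4.53. MLOC_72721 was the reverse, with 0, 0 and 7.18 in line 17_10 at stage 59 against 103, 182 and 249 in line 5.8 and 4.61, 31.8 and 16.3 in the control. The interactions were 6.18 (SE 1.26) and -6.38 (SE 1.07), both at a limma adjusted p of 0.53 (n = 3 per group).

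Last, each library was placed on an axis drawn by the control alone, where 0 is the control mean at stage 49 and 1 that at stage 59, over 20874 features. Control libraries set the axis and their own deviations are part of it, so they are not tested on it. Libraries that did not set it can fall short of 1 for that reason alone. Line 17_10 stood at -0.005, -0.027 and -0.037 at stage 49, inside the control's range of -0.091 to 0.068. At stage 59 replicates 1 and 3 stood at 0.987 and 0.956, against 0.958 to 1.036 in the control, and replicate 2 at 0.745. Line 5.8 stood at -0.022 to -0.005 at stage 49 and at 0.926, 0.824 and 0.736 at stage 59. Between the lines the means differed by -0.01 at stage 49 and by 0.07 at stage 59, where line 17_10 had 0.896 ± 0.131 and line 5.8 0.829 ± 0.095 (SD, n = 3; exact permutation test, two-sided, p = 0.5 at each stage, where 3 against 3 cannot go below 0.1). At stage 59 the difference was smaller than the SD of either line, and at stage 49 it lay between the SDs, 0.016 in line 17_10 and 0.009 in line 5.8. At stage 59 the difference was 0.022, 0.14 and 0.037 without replicates 1, 2 and 3 of line 17_10, and 0.12, 0.065 and 0.021 without those of line 5.8.

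**Figure D5:**
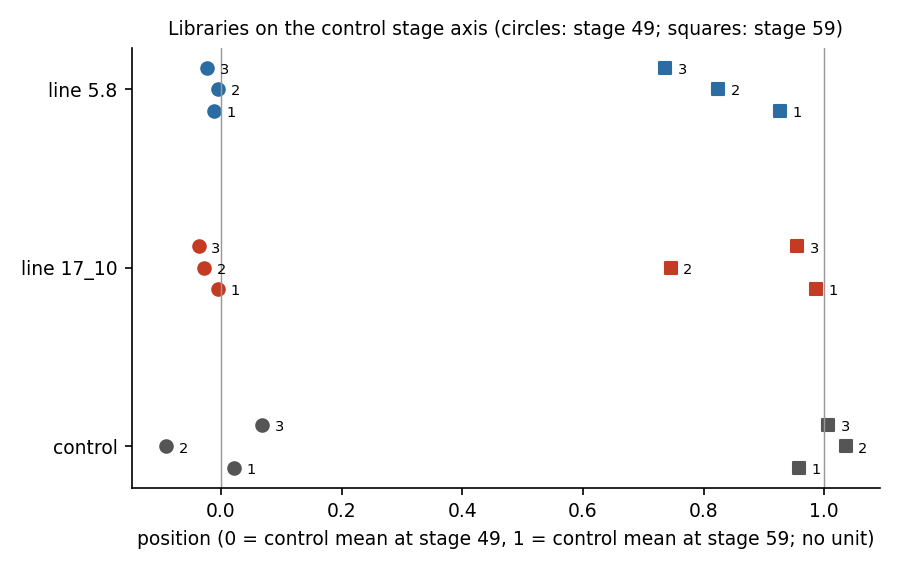
Position of each library (numbered by replicate) on the axis from the control mean at stage 49 (0) to that at stage 59 (1), with no unit. Circles are stage 49 and squares stage 59. In line 17_10 replicate 2 of stage 59 lies at 0.745, and replicates 1 and 3 lie at 0.987 and 0.956.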

How the data were processed

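Whole-spike mRNA was sequenced with a stranded kit, per the labels' protocols. The authors deposited a signal, gene counts divided by DESeq size factors per the labels, for each library. STAR 2.4.2a, Subread 1.5.2 and DESeq2 stand in the submitters' processing notes, without roles. The sources used here do not give genome build, annotation, strand setting or the handling of multiply aligned reads, so copies of near-identical genes and overlapping genes are uncertain. Division by a library's smallest non-zero value gave whole reads (100% of values, tolerance 0.001 reads). Intervals and floors cover counting error alone, and depth limits low features.

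Fits used limma 3.58.1 (R 4.3.3) on log2(value + 1) with a mean-variance trend, after a test on simulated data. Two-sided tests of line 17_10 used its 6 libraries, and interactions all 18. Fold changes understate low features. edgeR 4.0.16 and DESeq2 1.42.0 on recovered reads, other filters, pseudocounts, scalings and left-out libraries were alternatives. No replicates were copies: the chi-square per feature between libraries of line 17_10 at a stage was at least 44.4. Named features were the 2 largest rises and falls among called features that averaged 50 or more in the higher stage without overlap, and the highest and lowest t of each interaction at such a mean. The comparison, lists and rules were chosen with earlier results of these data known.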

Additional observations from a re-analysis of the deposited data

Results flagged for a closer look

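MLOC_70609 drew notice because its libraries moved in opposite directions in 2 genotypes: each library of stage 59 lay above each of stage 49 in line 17_10, and below in the control. The difference between the stage changes was 1.58 log2 units (SE 0.26, n = 3 per group; limma, adjusted p = 0.24), so it did not pass the test over all features. Such opposite separation was found in 32 of 19477 features tested in both genotypes (0.16%). Of these, 3 were called in opposite directions. No outlier test was run, since each group has 3 libraries.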

How the results depend on the processing

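The count of features changed over heading in line 17_10 stayed within 1.5 times its value of 10624 under other filters, pseudocounts, scalings, tools and with all 18 libraries fitted, and was 8488 to 11214 with any library of the line left out. It fell to 3275 when changes had to exceed 2-fold, which is what that setting asks. Rises were 47.2% of the calls, 49.1% with TMM scaling and 54.7% with the EPlHVUG features left out and the libraries rescaled, a setting that changes both features and scaling. For changes of at least 4-fold (3184) the range without a library was 2985 to 3427, and rises were the fewer in every setting run. The 4 named features kept direction and call in all of them.

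Against the control, the count of interactions was 0, but 1 with no filter, 2 with a pseudocount of 10, 15 by DESeq2 and 518 with quality weights, and 0 to 25 with a library left out. Against line 5.8 it was 2 with a pseudocount of 10, 15 by DESeq2 and 1136 with quality weights, and 0 to 2 with a library left out. The cause of these was not tested. Position on the control axis at stage 49 differed by -0.01 between the lines, by 0.00704 with a pseudocount of 10 and by -0.0486 to 0.0169 with a library left out. It was positive without replicate 3 of the control at stage 49. At stage 59 the range was 0.0208 to 0.142.

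With the replicate number as a block, 10049 features changed with stage (3186 at least 4-fold) and interactions stayed at 0 and 0. Deviations of same-numbered libraries of the 2 stages correlated at 0.15, -0.03 and 0.05, and those of differently numbered ones at -0.17 to 0.14. With 3 libraries per stage, these values cannot settle whether same-numbered libraries belong together. Depth limits features near 3 reads.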

Other observations

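EPlHVUG features took 0.49, 7.46 and 0.37% of the normalized counts in replicates 1 to 3 of line 17_10 at stage 49, and 0.54, 0.54 and 2.2% at stage 59. In replicate 2 of stage 49 and in replicate 3 of stage 59 a single EPlHVUG feature was the most abundant of all, at 4.98 and 1.41%. Of the 148 such features tested in line 17_10, 9 rose and 13 fell over heading (14.9% called, limma adjusted p below 0.05, against 53.8% of all features tested), with a median log2 change of -0.15 and a median SE of 0.52, against 0.17 for all features.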
